A study of Homo sapiens with 4 samples.

Results

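The gene count table of SK-N-BE(2) cells, a MYCN-amplified human neuroblastoma cell line, was searched for 10 genes at the nuclear end of Hippo signaling. These are the repressive cofactor VGLL4, the transcription factors TEAD1, TEAD2, TEAD3 and TEAD4, the coactivators YAP1 and WWTR1 (the gene of TAZ), the kinases LATS1 and LATS2, and the scaffold AMOTL2. All 10 were matched by GENCODE symbol to 1 Ensembl identifier each among the 64252 genes of the table, and all 10 were among the 18779 genes with enough counts to be tested. They were chosen by name for their place in the pathway with the counts and log2 fold changes of the knockdown comparison already in view, so their values in that comparison are a description and no p-value is given for them.

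The study compared cells transfected with scrambled shRNA (sh-Scb, the control group) with cells carrying an shRNA against SAPCD2 (sh-SAPCD2), with 2 RNA-seq libraries per group. Per the study's methods the hairpins were delivered by lentivirus and the cells selected with puromycin, so both groups carry a hairpin vector. A single hairpin against a scrambled one cannot tell loss of SAPCD2 apart from other effects of that hairpin. The sources do not say that the libraries of a group came from separate cultures, so p-values measure only the spread between these libraries, which may be technical.

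Hippo signaling is a kinase cascade that restrains growth. STK3 and STK4 activate LATS1 and LATS2, which phosphorylate YAP and TAZ and keep them out of the nucleus. Nuclear YAP and TAZ have no DNA-binding domain and act on their target genes through the TEAD factors. VGLL4 binds the TEAD factors through its Tondu domains and competes with YAP and TAZ for them, which makes it a repressor of the same targets. In neuroblastoma, high YAP and TAZ levels are known from cells of the mesenchymal type rather than the adrenergic type.

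Depth ranged from 25347900 to 31850997 counts per library, and 3 counts, taken as the smallest detectable amount, equaled 0.0955 to 0.119 CPM (counts scaled to library size with TMM factors). This limit covers counting error only. SAPCD2 itself had 83.6 and 82.2 CPM in the control libraries and 35.4 and 52.5 CPM in the sh-SAPCD2 libraries, so the target was reduced in both, to 42.7% and 63.3% of the mean control level. The log2 fold change of SAPCD2 was −0.91 with a standard error of 0.193 (edgeR's quasi-likelihood test, adjusted p = 0.0206). Without the filter on low counts this adjusted p was 0.0749. A gene is called higher or lower here at an adjusted p under 0.05 in that test. By this rule 24.8% of tested genes were called, 12.4% higher and 12.5% lower in SAPCD2-knockdown cells, and the median log2 fold change of all tested genes was 0.017.

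Of the 10 genes, 1 was called higher (VGLL4) and 3 were called lower (TEAD1, TEAD3 and LATS1). VGLL4 and TEAD3 also passed an absolute log2 fold change of 1, which 4.69% of tested genes passed upward and 5.15% downward. In 3 of the 10 genes both sh-SAPCD2 libraries lay above both controls, and in 6 both lay below, against 33.5% and 33.4% of tested genes. Only LATS2 overlapped between the groups. Since the genes were picked with these values known, nothing is read from the counts.

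VGLL4 (ENSG00000144560) is a minus-strand gene of chromosome 3 (hg38, 11556069 to 11771350). It had 99.7 and 94.7 CPM in the control libraries and 307 and 317 CPM in the sh-SAPCD2 libraries, on 2605 to 9946 counts. The groups were far apart and the libraries within each group close together. Mean VGLL4 rose from 97.2 ± 3.55 CPM in the controls to 312 ± 6.76 CPM after knockdown (SD, n = 2 per group), a ratio of 3.21 and a log2 fold change of 1.68 (standard error 0.0978). Ranked by log2 fold change from the top, VGLL4 stood at place 365 of 18779 tested genes. The other members of the vestigial-like family, VGLL1, VGLL2 and VGLL3, had 0 counts in all 4 libraries, so VGLL4 was the only one with reads.

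**Figure D1:**
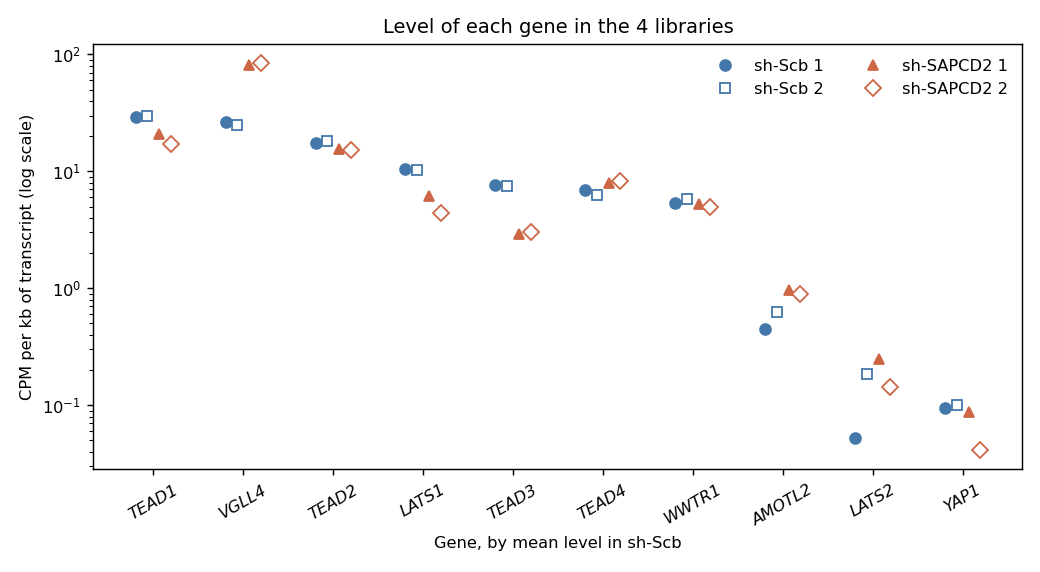
Level of each of the 10 genes in the 4 libraries, in CPM per kb of transcript on a log axis, with genes ordered by their mean in the control group (blue, sh-Scb; orange, sh-SAPCD2). VGLL4 moved from 26.4 and 25.1 to 81.4 and 83.9 CPM per kb, above every TEAD gene, while YAP1 and LATS2 stayed at or under 0.249 CPM per kb in all libraries.

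The TEAD factors are the DNA-binding partners shared by YAP, TAZ and VGLL4, and they did not move as 1 block. TEAD3 (ENSG00000007866, chromosome 6, 35473597 to 35497079) had 22.8 and 22.2 CPM in the control libraries and 8.73 and 9.01 CPM in the sh-SAPCD2 libraries. It fell to 39.4% of the control mean, or by 1.34 on the log2 scale (standard error 0.143), and its libraries were nearly equal within each group. TEAD1 (ENSG00000187079, chromosome 11, 12674421 to 12944737) had 275 and 282 CPM against 195 and 162 CPM. It fell to 63.8% of the control mean, a log2 fold change of −0.65 (standard error 0.12), with the second sh-SAPCD2 library the lower one. The call of TEAD1 was lost without sh-Scb library 1 (log2 fold change −0.67) and without sh-Scb library 2 (−0.63).

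TEAD2 and TEAD4 were not called. TEAD2 had 37.9 and 39.9 CPM against 33.6 and 33 CPM, a log2 fold change of −0.22 (standard error 0.12). TEAD4 had 11.8 and 10.8 CPM against 13.6 and 14.3 CPM, a log2 fold change of 0.3 (standard error 0.153), so its libraries lay on the other side of the controls from those of TEAD1, TEAD2 and TEAD3.

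Gene levels can be compared only per length, so CPM was divided by the length in kb of each gene's representative transcript. On this scale the summed TEAD level was 61.2 and 62.1 CPM per kb in the control libraries and 47 and 43.7 CPM per kb in the sh-SAPCD2 libraries. TEAD1 held the largest share of it, 47.8% and 48.3% in the controls and 44% and 39.3% after knockdown. The TEAD3 share was 12.5% and 12%, then 6.22% and 6.91%. The shares of TEAD2 (28.5% and 29.6%, then 32.9% and 34.7%) and TEAD4 (11.3% and 10.2%, then 16.9% and 19.1%) were larger in both sh-SAPCD2 libraries. In level rather than share, TEAD4 was 6.61 ± 0.417 and 8.14 ± 0.279 CPM per kb (SD, n = 2 in each group), and TEAD3 was 7.53 ± 0.134 and 2.97 ± 0.0665, so these factors exchanged places.

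The ratio of VGLL4 to the summed TEAD level was 0.431 and 0.404 in the control libraries and 1.73 and 1.92 in the sh-SAPCD2 libraries. Per length, VGLL4 was below the summed TEAD family in both controls and above it in both knockdown libraries. The size of the ratio depends on the lengths used. With the union of all exons as length, it was 0.262 for the controls and 1.18 after knockdown.

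**Figure D2:**
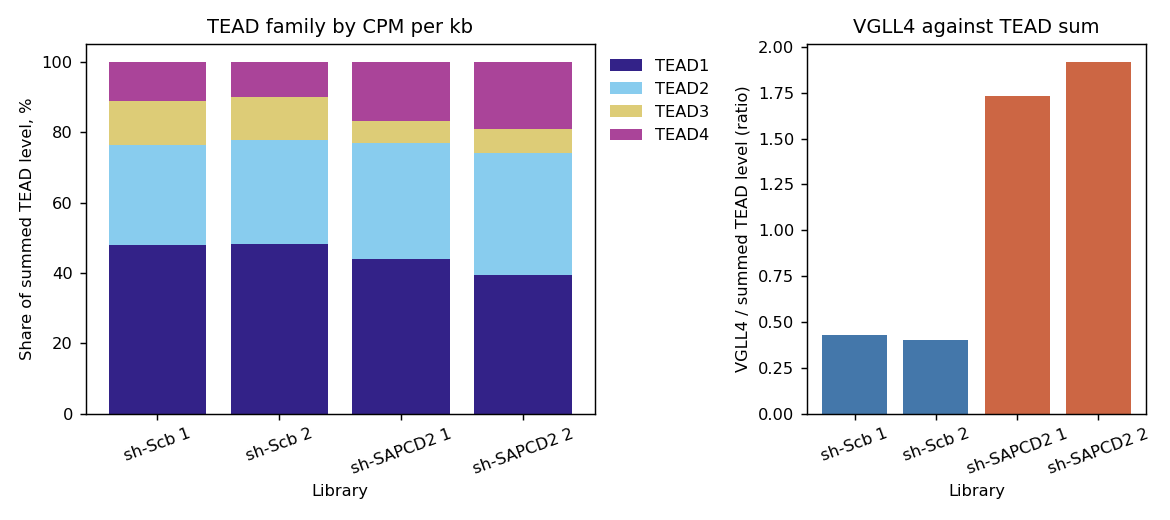
Left, share of each TEAD gene in the summed TEAD level (%, from CPM per kb) in each library; right, ratio of VGLL4 to the summed TEAD level in each library (blue, sh-Scb; orange, sh-SAPCD2), with bars for single libraries. TEAD3 shrank from 12.5% and 12% to 6.22% and 6.91%, and the VGLL4 ratio went from 0.431 and 0.404 to 1.73 and 1.92.

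Of the coactivators, WWTR1 was expressed and YAP1 was close to the limit of detection. WWTR1 (ENSG00000018408, chromosome 3, 149517235 to 149736714) had 26.8 and 29.5 CPM in the control libraries and 26.6 and 25 CPM in the sh-SAPCD2 libraries. Its log2 fold change was −0.13 (standard error 0.133), within 1 standard error of 0. YAP1 (ENSG00000137693, chromosome 11, 102110447 to 102233424) had 14 and 15 counts in the controls and 12 and 7 counts after knockdown, or 0.507, 0.545, 0.474 and 0.223 CPM. Its log2 fold change of −0.61 had a standard error of 0.558, and it ranged from −1.23 to −0.15 with 1 library left out, so no difference was detectable at this depth. Per length, WWTR1 made up 98.3% to 99.2% of the summed level of the 2 coactivators in every library.

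The LATS kinases, which inactivate YAP and TAZ, differed in the same way in their levels. LATS1 (ENSG00000131023, chromosome 6, 149658153 to 149718105) had 77.1 and 75 CPM in the control libraries and 45.3 and 32.6 CPM in the sh-SAPCD2 libraries. Both fell below the controls, to 59.5% and 42.9% of the control mean, and the log2 fold change was −0.97 (standard error 0.172). Its call was lost without the filter on low counts, where the log2 fold change was also −0.97. LATS2 (ENSG00000150457, chromosome 13, 20973036 to 21061586) had only 8 and 28 counts in the controls and 35 and 25 counts after knockdown. The groups overlapped, and its log2 fold change of 0.72 (standard error 0.636) moved between 0.09 and 1.89 with 1 library left out. LATS1 made up 96.1% to 99.5% of the summed per-length LATS level in each library.

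AMOTL2, a motin that binds YAP and activates LATS kinases, had 2.17 and 3.05 CPM in the control libraries and 4.7 and 4.33 CPM in the sh-SAPCD2 libraries, on 60 to 136 counts. Both sh-SAPCD2 libraries lay above the controls, at a log2 difference of 0.79 (standard error 0.258), but it was not called. With the replicate number as a block it was called, at a log2 fold change of 0.8. Its paralog AMOTL1 was far more abundant, at 375 and 384 CPM in the controls and 509.7 and 488 CPM after knockdown (log2 fold change 0.39 with standard error 0.0913; edgeR, adjusted p = 0.0268). The call of AMOTL1 was lost under 4 of 10 alternatives, among them leaving out either control library. AMOT had 55.4 and 61.1 CPM against 57.7 and 48.7 CPM (log2 fold change −0.13, adjusted p = 0.509 from edgeR).

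**Figure D3:**
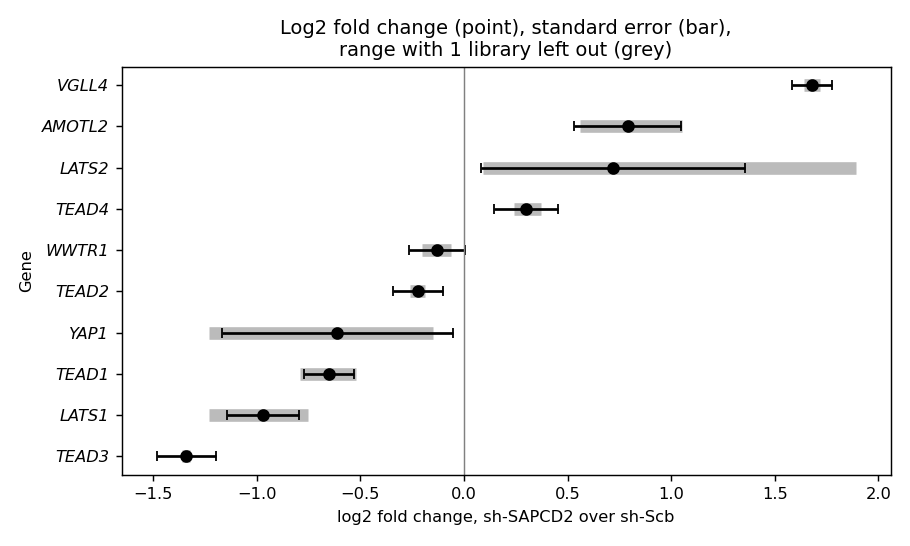
Log2 fold change of each gene, sh-SAPCD2 over sh-Scb (points), with its standard error from edgeR (bars) and the range over the fits that leave out 1 library (grey). VGLL4 lay between 1.64 and 1.72 and TEAD3 between −1.36 and −1.32 in every such fit, while YAP1 and LATS2 had the widest ranges.

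The 2 sh-SAPCD2 libraries differed in how far SAPCD2 was reduced, and the genes did not follow that order alike. In the first library, with SAPCD2 at 42.7% of the control mean, TEAD1 stood at 69.8%, LATS1 at 59.5% and VGLL4 at 316%. In the second, with SAPCD2 at 63.3%, they stood at 58%, 42.9% and 326%. TEAD3 stood at 38.8% and 40.1%. With 2 libraries this is a description only. For the TEAD1 share of the summed TEAD level, the order of the libraries depends on the processing. With a correction for GC content and length, this share was 40.9% in the first library and 45.8% in the second. Uncorrected, it was 44% and 39.3%. The corrected summed TEAD level was 48.1 and 42.3 CPM per kb in these libraries, so the order by share is not the order by TEAD1 level.

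Ordered by level per length in the control group, TEAD1 came first (29.6 ± 0.504 CPM per kb), before VGLL4 (25.7 ± 0.941), TEAD2 (17.9 ± 0.639), LATS1 (10.3 ± 0.198), TEAD3, TEAD4 and WWTR1 (5.58 ± 0.377; SD, n = 2 throughout). AMOTL2 followed at 0.537 ± 0.128, then LATS2 and YAP1, whose libraries overlapped. After knockdown VGLL4 came first (82.6 ± 1.79), before TEAD1 (18.9 ± 2.49), TEAD2 (15.3 ± 0.194) and TEAD4. LATS1 (5.29 ± 1.21) and WWTR1 (5.12 ± 0.228) then overlapped, and TEAD3 stood below both. In the controls, the placing of VGLL4 above TEAD2 depends on the lengths used. With the union of all exons as length, control VGLL4 was 0.271 and 0.254 of the summed TEAD level. TEAD2 was then 24.9% and 25.9% of it, so VGLL4 and TEAD2 overlapped.

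Reads from a gene and from a gene overlapping it cannot be told apart without strand, and the strandedness of the counting is not given in the sources used here. Of the 10 genes, 8 overlap other genes of the table, 19 in all, but only 2 of these had enough counts to be tested. ATG7, an autophagy gene on the opposite strand that overlaps VGLL4, had 26.6 and 26.5 CPM in the controls and 20.9 and 19.1 CPM after knockdown (log2 fold change −0.41 with standard error 0.133; edgeR adjusted p = 0.0713), so its levels lay in the other direction from those of VGLL4. CD37, which overlaps TEAD2, had 3.02 to 4.15 CPM. WWTR1-AS1 had 1 to 6 counts and LATS2-AS1 had none. TEAD3 and TEAD4 overlap no other gene of the table.

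By a fixed rule, the genes with the profile most like that of VGLL4 over the 4 libraries were sought among 15681 genes with at least 1 CPM on average. The measure was the Euclidean distance of log2 CPM centered on the control mean. SLC39A7, a zinc transporter gene, was nearest at a distance of 0.0606, with 8.76 and 8.32 CPM in the controls and 26 and 28.2 CPM after knockdown. TPRG1L (0.0693) and PPM1K (0.0924) followed.

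Sequences bear on these genes in 2 ways, through sites for the hairpin and through promoter motifs. The labels do not number the hairpin, and the study's heat map of these libraries names the first of its hairpins. Its antisense strand is given 5′ to 3′ with the seed (bases 2 to 8) in capitals, followed by each match in the 3′ untranslated regions of the genes called lower or higher. Capitals mark the 7 bases of the site, with 8 bases either side, from the representative transcripts of GENCODE 44 in hg38. In CCACCTA and GAGGTCA the last capital, A, does not pair with the hairpin.
Antisense strand of sh-SAPCD2 #1: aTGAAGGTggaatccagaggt
TEAD1 seed site, chr11:12940682-12940704, plus strand: ctgatttgACCTTCAtcccttag
TEAD1 shifted site, chr11:12943624-12943646, plus strand: catcagatTCCACCTctgtcagg
TEAD1 shifted site, chr11:12937339-12937361, plus strand: ctggccccGAGGTCAccccgact
TEAD3 seed site, chr6:35474730-35474752, minus strand: taggggacACCTTCAgcctccag
TEAD3 shifted site, chr6:35474896-35474918, minus strand: aggcctccCCACCTAccccagca
TEAD3 shifted site, chr6:35473762-35473784, minus strand: tccaaaccCCACCTAggttttat
VGLL4 shifted site, chr3:11557163-11557185, minus strand: cagctgtgGAGGTCAcagctgct

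The seed site ACCTTCA was present in 4 of the 10 genes (TEAD1, TEAD3, YAP1 and LATS2) and in 12.5% of 13583 tested protein-coding genes with a 3′ untranslated region. Shifted sites pair with other stretches of the hairpin arms, some of which overlap the seed. They were singled out in earlier work on these data after values were seen. The site TCCACCT pairs with the antisense arm over 7 bases, and CCACCTA holds 6 of its bases followed by A. The site AGAGGTC pairs with the start of the sense arm and the vector base before it, and GAGGTCA holds 6 of its bases followed by A. At least 1 of them was present in 4 of the 10 genes (VGLL4, TEAD1, TEAD3 and AMOTL2) and in 33.9% of the same protein-coding genes. The genes called lower include TEAD1 and TEAD3 with both kinds of site and LATS1 with none, and VGLL4, which rose, holds a shifted site. A match of letters is no evidence of binding, longer regions hold more matches (7515 bases in TEAD1), and the part of such sites in the result was not tested.

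RefSeq promoters (GRCh38.p14, from 250 bases before to 50 bases after a start) were listed for 8 of the 10 genes, with 16 windows in all and 5 for VGLL4. TEAD1 and TEAD4 were not matched. The TEAD motif GGAATG on either strand was found in 3 of the 16 windows, and in 14% of all 35116 promoters. These 3 windows, shown with the motif in capitals, belong to the genes of a coactivator, a kinase and a scaffold and not to VGLL4. The E-box CACGTG, the palindrome bound by the MYC family, was found in 1 window each of VGLL4, YAP1 and LATS2, and in 7.26% of all promoters. None of the motif matches overlaps another.
AMOTL2 TEAD motif, chr3:134374503-134374524, minus strand: aactctcaCATTCCtggcatag
YAP1 TEAD motif, chr11:102110277-102110298, plus strand: agtgtgcaGGAATGtagcaact
LATS2 TEAD motif, chr13:21061564-21061585, minus strand: acgcccgtGGAATGccaacaat
VGLL4 E-box, chr3:11604670-11604691, minus strand: aggggaagCACGTGcccaaatt

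An E2F site of the form TTTCCCGC, TTTGGCGC, TTTGCCGC or TTTCGCGC was in 0 of the 16 windows and in 3.31% of all promoters. This says only that these letters are not in the windows searched.

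The rest of the pathway was examined with 5 lists compiled from general knowledge, 120 genes in all outside the 10. Earlier results of these data were known when the lists were made, so their counts, shares and adjusted p-values are a description. Among the 103 with enough counts to test, 17 were called higher and 12 lower, or 28.2% called against 24.8% of all tested genes, and their median log2 fold change was 0.09. Among the 28 called list genes that the naming rule selects, 7 kept their call under all 10 alternatives, and these were PPP2R1A, PRKCZ, LLGL2, TP73, ARHGEF17, NT5E and FJX1. The rule takes the smallest p per list and direction, and the share of all called genes that keep their call was not computed. Nothing particular to the pathway is therefore read from this number. Without the filter, calls among all tested genes also fell, from 2326 to 1081 higher and from 2339 to 1180 lower. WWC1, FAT3 and GADD45A lost their call without the filter on low counts and in no other alternative. The remaining genes each lost it when a control library was left out, TAOK3 and WWC3 without sh-Scb library 1, STRN without sh-Scb library 2, and the others without either.

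The core kinases upstream of LATS were not called. STK4 had 69.7 and 71.5 CPM in the controls and 59.3 and 52.3 CPM after knockdown (adjusted p = 0.0832 from edgeR), STK3 had 13.1 to 16.9 CPM and their adaptor SAV1 28.7 to 31 CPM in all libraries. Of 26 tested kinases and scaffolds, 4 were called higher (15.4%) and 3 lower (11.5%), with a median log2 fold change of −0.05. For all tested genes these shares were 12.4% and 12.5%. The higher ones were the kinases MINK1 (log2 fold change 0.81), TNIK (0.77) and TAOK3 (0.77), which can act on LATS beside STK3 and STK4, and AMOTL1. The lower ones were WWC1 (−1.35), the gene of the scaffold KIBRA, its paralog WWC3 (−0.89) and the FERM-domain gene FRMD6 (−0.36), at adjusted p from 0.0155 to 0.0427 (edgeR). WWC1 had 5.07 and 6.11 CPM in the controls and 1.58 and 2.77 CPM after knockdown. Fewer genes of this list were called in both directions without either sh-Scb library, and more without either sh-SAPCD2 library. The same held for all tested genes, so these shifts are not particular to the list.

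Among genes that hold the kinases back, mostly subunits of the STRIPAK phosphatase complex, 1 of 20 tested was called higher (5%) and 2 lower (10%). Their median was 0.11, and the shares of all tested genes were 12.4% and 12.5%. PPP2R1A, the scaffold subunit of protein phosphatase 2A, had 159 and 153 CPM in the controls and 22.2 and 28.9 CPM after knockdown, or −2.61 on the log2 scale (standard error 0.155; edgeR adjusted p = 0.00201). Its paralog PPP2R1B had a log2 fold change of 0.09 (edgeR adjusted p = 0.596). STRN, the gene of striatin, fell by 0.74 on the log2 scale, and the catalytic subunit gene PPP2CB rose by 0.39. The single higher call was lost without either sh-Scb library, and more genes were called higher without either sh-SAPCD2 library. Among all tested genes, higher calls moved in the same directions. The call of STRN was lost without sh-Scb library 2.

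Adhesion and polarity genes, which feed cell contact into the pathway, held 3 higher (14.3%) and 4 lower (19%) genes among 21 tested. Their median was 0.15, and the shares of all tested genes were 12.4% and 12.5%. PRKCZ, an atypical protein kinase C of the apical polarity complex, had 11.3 and 10.9 CPM in the controls and 34.2 and 43.3 CPM after knockdown, or 1.8 on the log2 scale (standard error 0.166; edgeR adjusted p = 0.00297). The protocadherin gene DCHS1 (0.69) and N-cadherin gene CDH2 (0.56) also rose. The lower genes included LLGL2 (−2.1) and LLGL1 (−0.51), of the basolateral polarity complex, and the giant cadherin FAT3 (−1.65). LLGL2 had 5.18 and 4.29 CPM against 0.711 and 1.46 CPM. Higher calls were fewer without either sh-Scb library and more without either sh-SAPCD2 library, and lower calls were fewer without either sh-Scb library. Calls among all tested genes moved in the same directions.

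Other TEAD coregulators and genes of YAP and TAZ retention and turnover held 4 higher (19%) and 2 lower (9.52%) genes among 21 tested. Their median was 0.1, and the shares of all tested genes were 12.4% and 12.5%. The 14-3-3 genes, whose proteins hold phosphorylated YAP and TAZ in the cytoplasm, moved in both directions. YWHAG (log2 fold change 0.71) and YWHAH (0.4) rose and YWHAE (−0.55) fell. FBXW11 (0.45), of the ubiquitin ligase that degrades YAP and TAZ, and the casein kinase gene CSNK1D (0.62) rose. TP73, a partner of YAP, had 11.4 and 8.9 CPM in the controls and 3.59 and 3.73 CPM after knockdown (log2 fold change −1.47 with standard error 0.209; edgeR adjusted p = 0.00683). Higher and lower calls were fewer without either sh-Scb library and more without either sh-SAPCD2 library, as they were among all tested genes.

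Target genes of YAP and TAZ were a mixed group, with 5 called higher and 1 lower among 16 tested, and the list median was −0.07. Higher calls made up 31.2% against 12.4% of all tested genes, and lower calls 6.25% against 12.5%. The commonly used reporters of YAP and TAZ activity were barely detected. CCN2 had 2 to 7 counts, ANKRD1 2 to 8 counts, and CCN1 0.181 and 0.509 CPM in the controls and 0.869 and 0.828 CPM after knockdown (log2 fold change 1.29, adjusted p = 0.148 from edgeR). The genes that rose had control levels from 21.9 CPM (GADD45A) to 188 CPM (NT5E).

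FJX1, a kinase of the Fat and Dachsous branch, had 39.6 and 41.5 CPM in the controls and 78.7 and 122 CPM after knockdown, or 1.31 on the log2 scale (standard error 0.211; edgeR adjusted p = 0.0098). ARHGEF17, a guanine nucleotide exchange factor gene, had 91.9 and 90.2 CPM against 162 and 193 CPM, or 0.96 on the log2 scale (standard error 0.121; edgeR adjusted p = 0.00519). NT5E, the gene of the surface enzyme CD73, had 182 and 188 CPM against 358 and 297 CPM, or 0.82 on the log2 scale (standard error 0.12; edgeR adjusted p = 0.00732). In these 3 genes both sh-SAPCD2 libraries lay well above both controls. GADD45A, a stress response gene also induced by p53, had a log2 fold change of 1.07, and CCDC80, named after its values were seen, 0.56. DOCK5 (−0.59) was the gene called lower, a call that was lost without either sh-Scb library. More genes were called lower without sh-SAPCD2 library 1, as among all tested genes. The higher calls stayed at 4 or 5 with each library left out.

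**Figure D4:**
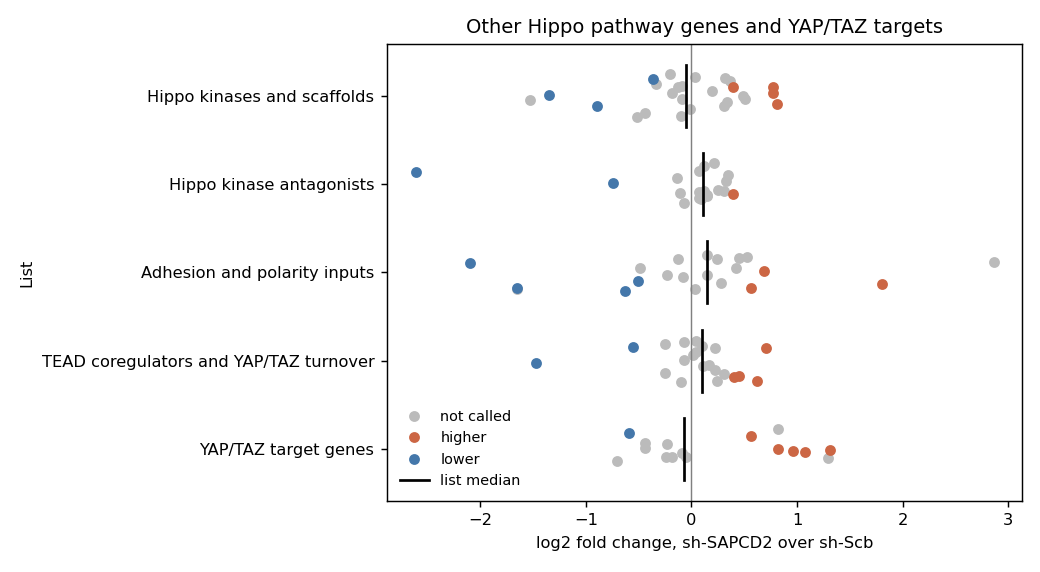
Log2 fold change of each tested gene in the 5 pathway lists, sh-SAPCD2 over sh-Scb, with genes called higher in orange, called lower in blue and not called in grey; the black line is the list median. All 5 medians lie between −0.07 and 0.15, with PPP2R1A at −2.61 as the lowest point.

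The labeled cell type was checked against marker lists. Markers of adrenergic neuroblastoma summed to 5452 to 5576 CPM in the controls and 7800.4 to 9620 CPM after knockdown. Of 11 tested genes, 2 were called higher and 4 lower (18.2% and 36.4%, against 12.4% and 12.5% of all tested genes). MYCN made up most of the summed level and all of the rise in its mean, at 3235 and 3178 CPM against 5904 and 7091 CPM. The median log2 fold change of the list was 0.02, so the sum does not show that these markers rose together. DBH (log2 fold change −1.35) and ISL1 (−0.52) were among the lower genes. The call of ISL1 was lost without either sh-Scb library. Mesenchymal and fibroblast markers summed to 2259.6 to 2266 CPM in the controls and 1556 to 1618 CPM after knockdown. VIM, the vimentin gene, made up most of the difference in this sum, at 1197 and 1179 CPM in the controls and 518 and 555 CPM after knockdown. Of these 18 genes, 16 were tested, with 2 called higher and 4 lower (12.5% and 25%). The higher ones were the AP-1 factor gene FOSL1, at 0.579 and 1.05 CPM against 4.23 and 4.17 CPM (log2 fold change 2.36), and the surface antigen gene THY1, at 192 and 189 CPM against 239 and 254 CPM (0.37). The lower ones beside VIM were NOTCH2 (−1.26), PDGFRA (−0.71) and FN1 (−0.59). The calls of FOSL1, VIM and NOTCH2 held under all 10 alternatives, and those of THY1, PDGFRA and FN1 were lost without either sh-Scb library. Levels within this list were mixed. The defining factor PRRX1 had 0 counts in all libraries, and COL1A1 had only 2.13 to 4.27 CPM. TWIST1, PDGFRB, LUM and CD44, none of them called, had 108 to 232 CPM. Markers of leukocytes, endothelium and epithelium summed to 14.8 to 15.4 CPM in the controls and 18 to 19 CPM after knockdown. The leukocyte marker PTPRC made up most of this, at 9.7 and 8.94 CPM in the controls and 12.4 and 10.6 CPM after knockdown. The epithelial marker EPCAM had 3.4 to 4.58 CPM, and neither was called. CD3E had 0 counts. Of 7 tested genes, 3 were called higher (CD14, CD68 and VWF, each under 2 CPM), or 42.9% against 12.4% of all tested genes. These 3 calls were lost with DESeq2 and without either sh-Scb library, those of CD14 and CD68 also without sh-SAPCD2 library 1, and those of CD14 and VWF without sh-SAPCD2 library 2. In bulk RNA, fewer cells of a type and less RNA per cell cannot be told apart, and the part of cell state in the values of the 10 genes was not tested.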

How the data were processed

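RNA-seq libraries of SK-N-BE(2) cells were analysed, 2 with sh-Scb and 2 with sh-SAPCD2, grouped by the sample titles. HISAT2 2.2.0 (submitters' notes) placed the paired-end reads of 150 bp on hg38, StringTie quantified them, and the authors deposited whole-number counts per Ensembl gene, not scaled for library size. The annotation release, the step from coverage to counts and the strandedness are not given in the sources used here.

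Counts were tested with edgeR 4.0.16 (R 4.3.3, limma 3.58.1): TMM factors from 0.9872 to 1.009, filterByExpr (at least 10 counts, total at least 15) and quasi-likelihood tests, adjusted by Benjamini-Hochberg over 18779 genes. The biological coefficient of variation was 15.4%. Standard errors are the absolute log2 fold change over the square root of the F statistic. Symbols, positions and transcript lengths came from GENCODE 44, which lacks 1312 of the tested genes. The 10 genes and all lists were chosen with earlier results of these data known. PTPN14 is in 2 lists. Named genes were the 10, SAPCD2, at most 4 called genes per list and direction, their paralogs, 3 standard targets, overlapping genes, markers and 3 genes most like VGLL4, some of which are not reported here.

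Each result was recomputed with DESeq2 1.42.0, with DESeq2 size factors inside edgeR, and with no filter, a mean of at least 1 CPM, a replicate block, a loess correction for GC content and length (span 0.3) and each library left out. In simulated data with 200 changed genes among 18741 tested, edgeR recovered 79 of 100 genes changed by a log2 of 1 and 97 of 100 changed by 2. It called 12 unchanged genes. Every simulated gene had the same biological coefficient of variation, and only genes with more counts than YAP1 were changed. Far fewer genes were changed than were called in the real data, so these rates need not hold there. Figures used Python 3.11.15 and matplotlib 3.10.9.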

Additional observations from a re-analysis of the deposited data

How the results depend on the processing

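VGLL4 and TEAD3 kept direction and call under all 10 alternatives. YAP1 and LATS2 had 9, since a mean of at least 1 CPM removed them. Besides the changes of TEAD1, LATS1, AMOTL2 and SAPCD2 given above (TEAD1 −0.67 and −0.63 without a control library, LATS1 −0.97 and SAPCD2 −0.91 without the filter), no call or direction of the 10 genes changed. The block is no design pairing: same-numbered libraries deviated from their group means with a correlation of −0.0188 across genes. With the replicate block, AMOTL2 was called at 0.8, which made 2 of the 10 genes higher, and the counts called higher were 0 antagonists and 5 adhesion genes.

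Log2 fold changes with 1 library left out ranged from 1.64 to 1.72 for VGLL4, −0.79 to −0.52 for TEAD1, −0.26 to −0.19 for TEAD2, −1.36 to −1.32 for TEAD3, 0.24 to 0.37 for TEAD4, −1.23 to −0.15 for YAP1, −0.2 to −0.06 for WWTR1, −1.23 to −0.75 for LATS1, 0.09 to 1.89 for LATS2, 0.56 to 1.05 for AMOTL2 and −1.23 to −0.67 for SAPCD2. Of the 10 genes, 1 was then called higher and 2 to 3 lower. List counts (higher, then lower) ranged from 0 to 9 and 1 to 8 for kinases and scaffolds, 0 to 8 and 1 to 3 for antagonists, 1 to 7 and 2 to 6 for adhesion, 0 to 8 and 1 to 5 for coregulators and 4 to 5 and 0 to 3 for targets. With a library left out, the number of all tested genes called also moved, from 1176 higher without sh-Scb library 2 to 4396 without sh-SAPCD2 library 1, and from 1146 to 4014 lower. These fits assume that the lone library varies like the other group.

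Without the filter, 34935 genes were tested, and the counts called fell to 0 higher and 1 lower for kinases, 0 and 1 for antagonists, 1 lower for adhesion, 1 higher for coregulators, and 3 higher and 0 lower for targets. With the GC content and length correction, 9 kinases and scaffolds were higher and 5 lower, and 6 antagonists and 5 adhesion genes were higher. The cause of these shifts was not tested. This correction raised all calls to 3987 higher and 3478 lower, and no filter left 1081 and 1180.

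With union exon lengths, the TEAD1 to TEAD4 shares were 50.6%, 25.4%, 14.3% and 9.65% for the controls and 45.1%, 30.4% and 7.91% for TEAD1 to TEAD3 after knockdown, and the VGLL4 ratio was 0.262 and 1.18. With the GC content and length correction the control shares of TEAD1 to TEAD3 were 46.2%, 29.8% and 12.8%. The corrected TEAD1 share by library was 46.3% and 46.2% in the controls and 40.9% and 45.8% after knockdown. This reversed the order of the sh-SAPCD2 libraries and put the second close to the controls. By library the control and knockdown shares ranged from 47.8% to 48.3% and 39.3% to 44% for TEAD1, 28.5% to 29.6% and 32.9% to 34.7% for TEAD2, 12% to 12.5% and 6.22% to 6.91% for TEAD3, 10.2% to 11.3% and 16.9% to 19.1% for TEAD4, and the VGLL4 ratio from 0.404 to 0.431 and 1.73 to 1.92.

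With 7 to 15 counts of YAP1 and 8 to 35 of LATS2 per library, depth limits what can be said of either gene.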
